A study of Mus musculus with 8 samples.

Results

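The values described here belong to 10 genes that govern passage through the G1 phase of the cell cycle, measured in lymphoid progenitors without the E protein E2A, without the E protein HEB, or with both. The genes were the D cyclins Ccnd1, Ccnd2 and Ccnd3, the kinases Cdk4 and Cdk6, the kinase inhibitors Cdkn1a, Cdkn1b and Cdkn2c, and the transcription factors Myc and Mycn. They were taken by gene symbol, 10 of 18193 genes on the array, and held 28 of the 34945 probe sets that carry 1 gene name. The RNA came from common lymphoid progenitors of bone marrow, gated LIN- FLT3+ CD127+ LY6D-, in C57BL/6 mice aged 10 to 13 weeks. E2A knockout cells (E2A KO, lacking the products of Tcf3) were on 4 arrays, HEB knockout cells (HEB KO, lacking that of Tcf12) on 2 and wild-type cells (WT) on 2. The labels name the knockouts by gene alone and state neither allele nor the cells that lost the gene. Several marrows were pooled for a sort, with at least 2 sorts per genotype, so the p-values speak of arrays of pooled cells and not of single mice.

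In early G1 the D cyclins bind Cdk4 or Cdk6, and the active kinases phosphorylate the retinoblastoma protein, which releases E2F factors to switch on the genes of S phase. Cdkn2c binds Cdk4 and Cdk6 and keeps cyclins away, while Cdkn1a and Cdkn1b bind complexes of cyclin and kinase, those with Cdk2 above all. Myc and Mycn drive growth and cell cycle entry with their partner Max at the DNA letters CACGTG. E2A and HEB are basic helix-loop-helix factors that bind the looser form CANNTG, and E proteins are known to restrain the division of lymphoid cells.

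None of the 10 genes passed the test in any comparison of genotypes, and none differed by as much as 2-fold at its brightest probe set. Values are log2 of the deposited intensity at a probe set, and a difference is a log2 difference between genotype means. The test was limma across all genes with a Benjamini-Hochberg adjusted p under 0.05. Of 11957 genes tested, 0.443% were called between E2A KO and WT cells, 0% between HEB KO and WT cells and 0.117% between E2A KO and HEB KO cells, and 0 of the 10 genes in each. At an unadjusted p under 0.05 in limma, 0 of the 10 genes, each at its brightest probe set, stood against 13.4% of all genes between E2A KO and WT cells. For HEB KO against WT cells it was 0 against 2.61%, and between E2A KO and HEB KO cells 1, Cdk4, against 16.5%. Some dimmer probe sets did reach this level. They were Ccnd3 1438805_at, Ccnd2 1416123_at and Cdkn1b 1419497_at between E2A KO and WT cells. Between HEB KO and WT cells they were Cdk4 1422440_at and Ccnd3 1438805_at. Between E2A KO and HEB KO cells they were Cdk4 1422440_at and Ccnd3 1438805_at and 1444323_at. The share of all probe sets at this level is not given here. The differences between E2A KO and WT cells had a median of 0.02 over the 10 genes, against -0.05 over all genes, and ran from -0.62 for Ccnd3 to 0.67 for Cdkn2c. Between HEB KO and WT cells the median was 0.17, against 0.09, and the range -0.50 for Ccnd1 to 0.65 for Cdk4. For E2A KO against HEB KO cells it was 0.03, against -0.16, and the range -0.83 for Ccnd3 to 0.70 for Ccnd1. The 95% interval lay within 2-fold either way for 5 genes between E2A KO and WT cells, namely Cdk4, Cdk6, Ccnd2, Cdkn1b and Myc. It did so for Cdk6, Ccnd2, Cdkn2c and Mycn between HEB KO and WT cells, and for Cdk6, Ccnd2, Cdkn1a and Cdkn1b between E2A KO and HEB KO cells. For the other genes the interval reached past 2-fold in at least 1 direction.

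All 10 genes passed the filter on low values, as did 27 of their 28 probe sets. Each targeted gene read lowest on the arrays of its own knockout. Tcf3 read 3.71 to 4.28 on E2A KO arrays, against 7.76 and 7.98 on WT arrays (-3.88, adjusted p = 0.000426). Tcf12 read 7.10 and 6.49 on HEB KO arrays, against 8.85 and 8.76 on WT arrays (-2.01, adjusted p = 0.328). That difference did not pass the test, and the HEB KO values stayed above their array medians of 3.82 and 3.84. Tcf12 was called higher in E2A KO than in HEB KO cells (1.77, adjusted p = 0.0372). The number of genes called in all between E2A KO and WT cells, 53, rested on single arrays and was 2 without WT array 2 and 104 without E2A KO array 3. The mean signal of the hybridization controls, bacterial transcripts added before the array step, was 11.5 to 12.6 on E2A KO arrays, 10.3 and 11.6 on HEB KO arrays and 11.4 and 10.3 on WT arrays. The log2 difference between the 3′ and 5′ control probe sets of beta-actin is smaller where the labelled RNA is more complete. It does not tell RNA quality from the effect of amplifying the RNA. This difference was 3.86 to 4.78 on E2A KO arrays, 3.37 and 3.58 on HEB KO arrays and 4.45 and 3.84 on WT arrays. Flt3, Il7r and Ly6d, which encode markers of the gate, were listed with Kit and Ptprc, which the stated gate does not name. The mean of these genes was 7.36 to 8.30 on E2A KO arrays, 9.31 and 8.13 on HEB KO arrays and 8.42 and 9.32 on WT arrays. This mean mixes selected markers with LY6D, which was selected against. Ly6d differed by -0.09 between E2A KO and WT cells, with an SE of 1.40. Of the listed genes Il7r, which encodes CD127, was called lower in E2A KO than in WT cells (-2.16, SE 0.32, adjusted p = 0.033). The mean of 9 B-lineage markers was 4.62 to 4.74 on E2A KO arrays, 5.93 and 5.19 on HEB KO arrays and 5.23 and 6.56 on WT arrays, with 1 of 8 tested, Cd72, called lower in E2A KO than in WT cells. That of 12 granulocyte and monocyte markers was 5.52 to 7.57 on E2A KO arrays, 7.32 and 8.39 on HEB KO arrays and 6.10 and 6.70 on WT arrays. That of 8 dendritic cell markers was 6.24 to 7.53 on E2A KO arrays, 7.54 and 7.20 on HEB KO arrays and 7.13 and 7.69 on WT arrays, with Ccr9 called lower in E2A KO than in WT and in HEB KO cells. Between E2A KO and WT cells Ccr9 differed by -5.28, the largest difference in that mean. Of the 8 markers 3 were positive there, among them H2-Aa at 2.19, and 5 were negative. Of the 12 granulocyte and monocyte markers, 6 were positive between E2A KO and WT cells and 6 negative, with Lyz2 lowest at -1.49. Between HEB KO and WT cells 9 were positive and 3 negative, with S100a8 highest at 3.63 (SE 1.79). None of these 12 markers was called in any comparison. Erythroid, megakaryocyte and mast markers averaged 4.24 to 5.42 on E2A KO arrays, 4.03 and 4.43 on HEB KO arrays and 4.17 and 4.12 on WT arrays, and stem cell markers 5.04 to 5.55 on E2A KO arrays, 5.39 and 5.59 on HEB KO arrays and 5.69 and 5.67 on WT arrays. Of 8 T and NK markers measured, 6 did not pass the filter, among them Cd3g, Cd3d and Bcl11b, and the mean was 4.26 to 4.47 on E2A KO arrays, 4.21 and 4.26 on HEB KO arrays and 4.13 and 4.30 on WT arrays. The part of other cells in the values that follow was not tested, and in RNA of a sorted population fewer cells of a type and less RNA per cell cannot be told apart.

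**Figure D1:**
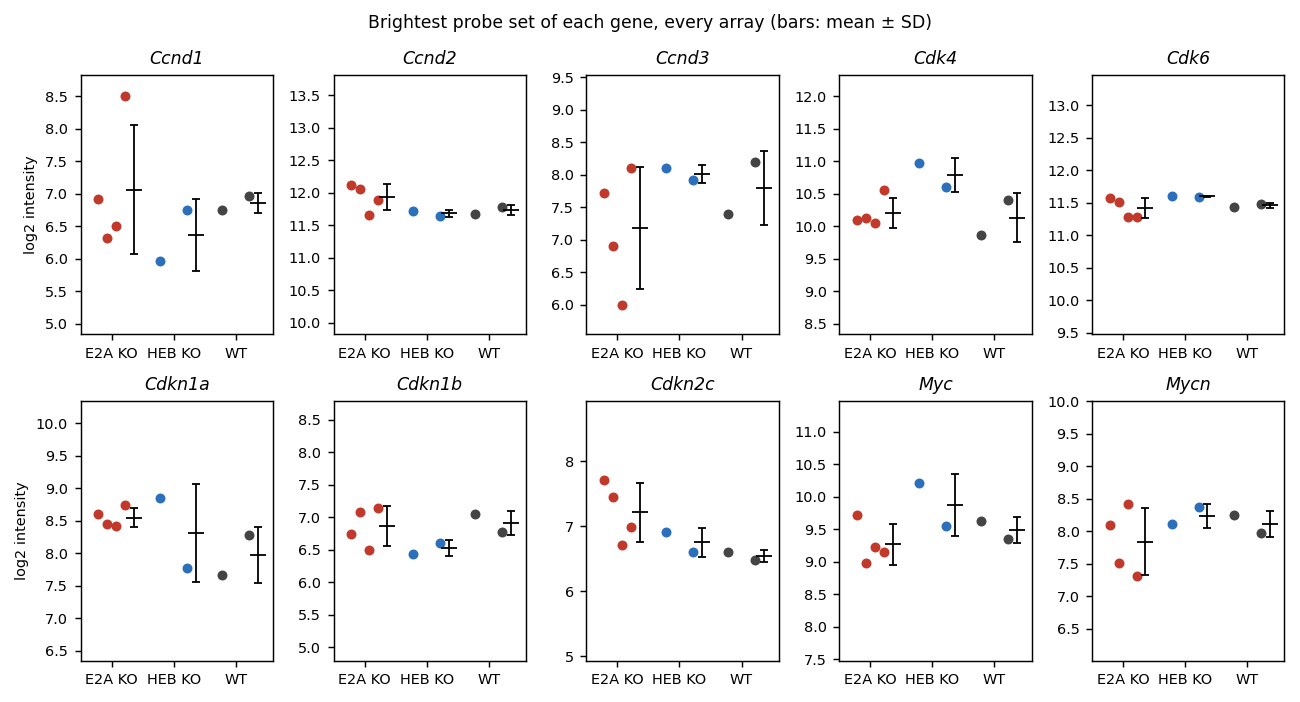
Log2 intensity (y axis, 4 log2 units in every panel) of the brightest probe set of each of the 10 genes on every array; points are arrays, grouped as E2A KO (4 arrays), HEB KO (2) and WT (2), and black bars give mean ± SD. Every pair of groups overlaps for Ccnd2, Ccnd3, Myc and Mycn; all 4 E2A KO arrays lie above both WT arrays for Cdkn1a and Cdkn2c, both HEB KO arrays lie above all others for Cdk4 and Cdk6 and below both WT arrays for Ccnd1 and Cdkn1b, and Ccnd1 spans 6.32 to 8.50 within the E2A KO arrays.

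Among the D cyclins, Ccnd2 differed little. This cyclin answers cytokine and antigen receptor signals in lymphocytes. Its brightest probe set (1455956_x_at) read 12.12, 12.05, 11.66 and 11.89 on E2A KO arrays, 11.72 and 11.64 on HEB KO arrays and 11.67 and 11.78 on WT arrays. The 8 values lay within 0.48 of each other and the genotypes overlapped. The difference was 0.20 between E2A KO and WT cells (SE 0.21, 95% interval -0.27 to 0.68, adjusted p = 0.688) and -0.05 between HEB KO and WT cells (SE 0.24, adjusted p = 1). All 7 probe sets of Ccnd2 had a positive difference between E2A KO and WT cells, from 0.06 to 0.65, although they read 1 gene in the same RNA and are no independent evidence. At 1416123_at, with the highest of these, the values were 7.39, 7.68, 7.33 and 7.39 on E2A KO arrays, 7.24 and 7.0 on HEB KO arrays and 6.91 and 6.69 on WT arrays. There the E2A KO arrays lay above the HEB KO arrays and these above the WT arrays, but the difference between E2A KO and WT cells did not pass the test over all probe sets (0.65, SE 0.22, adjusted p = 0.297).

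Ccnd3, a D cyclin that immature B and T cells need to expand, gave different answers at its 3 probe sets. Probe set 1438805_at read 5.86, 4.97, 5.37 and 5.47 on E2A KO arrays, 6.16 and 6.12 on HEB KO arrays and 7.05 and 6.82 on WT arrays. All 4 E2A KO values lay below both HEB KO values, which lay below both WT values. The difference between E2A KO and WT cells was -1.52 (2.87-fold lower, SE 0.27, 95% interval -2.13 to -0.91). It had the smallest p of the 27 probe sets of these genes and missed the threshold over 20849 probe sets (adjusted p = 0.0785, with 0.063 to 0.542 over 14 other settings). Between HEB KO and WT cells the same probe set differed by -0.80 (SE 0.31, adjusted p = 1) and between E2A KO and HEB KO cells by -0.72 (SE 0.27, adjusted p = 0.274). The mean of the B-lineage markers was also lower on E2A KO arrays, and its part in this value was not tested. Of the 8 tested, 7 were negative between E2A KO and WT cells, from Blnk at -3.24 to Igll1 at -0.08. Pax5 was positive (0.31). Of all probe sets tested, 0.211% were called between E2A KO and WT cells, 0% between HEB KO and WT cells and 0.0048% between E2A KO and HEB KO cells, and 0 of the 27 in each.

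The brightest probe set of Ccnd3, 1415907_at, did not separate E2A KO from WT cells. It read 7.72, 6.91, 5.99 and 8.10 on E2A KO arrays, 8.11 and 7.92 on HEB KO arrays and 7.40 and 8.20 on WT arrays. The spread among E2A KO arrays (SD 0.94, n = 4) exceeded the difference from WT of -0.62 (SE 0.53, adjusted p = 0.631). That difference was -0.22 without WT array 2 and -1.02 without WT array 1, and its sign turned (to 0.09) with the hybridization control signal as a covariate. The dimmest probe set, 1444323_at, read 4.98, 4.56, 5.22 and 4.82 on E2A KO arrays, 4.42 and 4.24 on HEB KO arrays and 4.66 and 4.55 on WT arrays, and its difference between E2A KO and WT cells was positive (0.29, SE 0.24, adjusted p = 0.648). RefSeq lists 2 start sites for Ccnd3 (gene at chr17:47505051-47599689, GRCm38.p6), and no source used here tells which transcripts each probe set reads.

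Ccnd1, the D cyclin best known from non-lymphoid tissues, varied most. Probe set 1417419_at, its brightest, read 6.92, 6.32, 6.50 and 8.50 on E2A KO arrays, 5.97 and 6.75 on HEB KO arrays and 6.75 and 6.96 on WT arrays. E2A KO array 4 stood above all others here and at both other probe sets, with 6.16 at 1417420_at and 7.67 at 1448698_at. At these other probe sets E2A KO array 3 was the lowest of all 8 arrays, with 4.08 and 4.35. At the brightest, the difference between E2A KO and WT cells was 0.20 (SE 0.56, 95% interval -1.06 to 1.46, adjusted p = 0.894) and turned to -0.28 without E2A KO array 4. At the other probe sets it was -0.51 and -0.58. The dendritic cell markers, whose means on the E2A KO arrays were 7.18, 6.42, 6.24 and 7.53, were also highest on array 4 and lowest on array 3, and their part in the Ccnd1 values was not tested. HEB KO arrays lay below WT arrays at all 3 probe sets, at the brightest by a margin of 0.001, with differences of -0.50, -0.77 and -0.73 (adjusted p = 1 each).

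**Figure D2:**
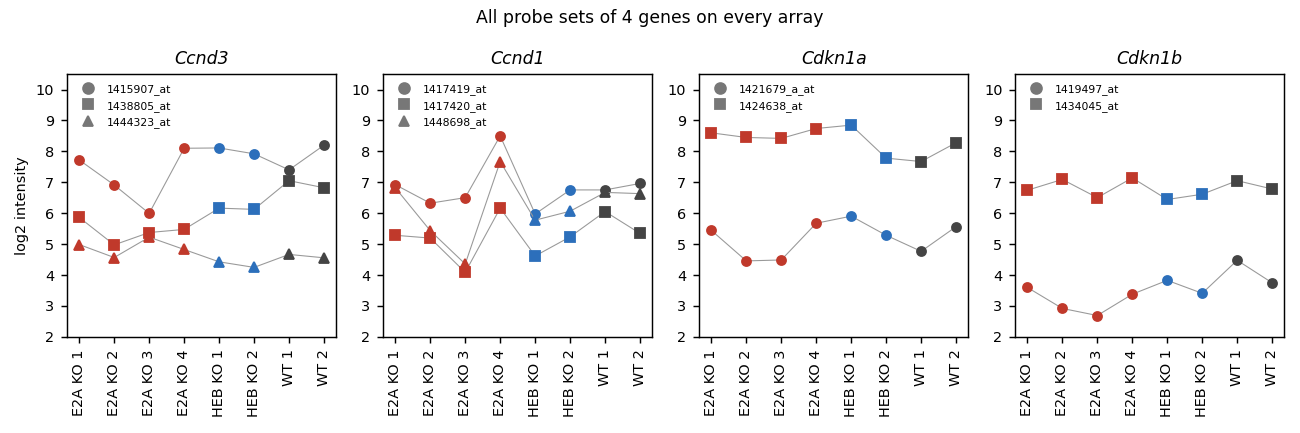
Log2 intensity (y axis) of every probe set of Ccnd3, Ccnd1, Cdkn1a and Cdkn1b on each of the 8 arrays (x axis; E2A KO red, HEB KO blue, WT dark grey; the symbol shape gives the probe set and thin lines join its values). For Ccnd3 the squares (1438805_at) fall into 3 separate levels, 4.97 to 5.86 on E2A KO, 6.16 and 6.12 on HEB KO and 7.05 and 6.82 on WT arrays; levels of different probe sets are not comparable.

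Cdk4 and Cdk6, the catalytic partners of the D cyclins, both had their highest mean in HEB KO cells. The brightest probe set of Cdk4, 1422441_x_at, read 10.10, 10.13, 10.05 and 10.55 on E2A KO arrays, 10.97 and 10.60 on HEB KO arrays and 9.86 and 10.40 on WT arrays. Both HEB KO values lay above all others, while E2A KO and WT values overlapped. The 3′ to 5′ actin difference was lower on both HEB KO arrays (3.37 and 3.58) than on all others (3.84 to 4.78), and its part in the HEB KO values of these and the other genes was not tested. Cdk4 was 0.65 higher in HEB KO than in WT cells (1.57-fold, SE 0.29, 95% interval -0.01 to 1.32), with an unadjusted limma p of 0.0531 and an adjusted p of 1. Between E2A KO and HEB KO cells the difference was -0.58 (SE 0.25), with an unadjusted limma p of 0.0499 and an adjusted p of 0.303. Between E2A KO and WT cells it was 0.08 (SE 0.25, adjusted p = 0.913), and -0.19 without WT array 1 or 0.35 without WT array 2. The 3 probe sets of Cdk4 gave like differences, 0.50, 0.80 and 0.65 between HEB KO and WT cells and 0.10, 0.11 and 0.08 between E2A KO and WT cells. Arrays with like hybridization control signal gave 0.57 for HEB KO array 1 minus WT array 2 and 0.73 for HEB KO array 2 minus WT array 1 at the brightest probe set.

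Cdk6, a kinase that E2A is known to repress in lymphoid tumour cells, was nearly level. Its brightest probe set, 1455287_at, read 11.58, 11.52, 11.29 and 11.29 on E2A KO arrays, 11.61 and 11.59 on HEB KO arrays and 11.44 and 11.49 on WT arrays. The full range over 8 arrays was 0.32, the narrowest of the 28 probe sets. E2A KO and WT cells differed by -0.04 (SE 0.20, 95% interval -0.49 to 0.40, adjusted p = 0.937), and the interval reached up to 1.32-fold of WT. The HEB KO arrays lay just above the WT arrays (0.14, SE 0.23, adjusted p = 1). At probe set 1435338_at the values were 11.34, 11.40, 11.12 and 11.21 on E2A KO arrays, 11.75 and 11.57 on HEB KO arrays and 11.48 and 11.59 on WT arrays. There the E2A KO arrays lay below both other genotypes, with a difference of -0.27 from WT (SE 0.21, adjusted p = 0.619). The third probe set, 1460291_at, lay above the array median on 1 array and was not tested. It read 3.74 to 4.17 on E2A KO arrays, 3.77 and 3.55 on HEB KO arrays and 3.80 and 3.38 on WT arrays.

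Among the inhibitors, Cdkn2c and Cdkn1a were the 2 genes of the 10 whose E2A KO arrays all lay above both WT arrays, where 9.98% of all genes did. Cdkn2c is best known for holding back the division of blood stem cells and maturing B-lineage cells. At its only probe set (1416868_at) it read 7.71, 7.45, 6.71 and 6.99 on E2A KO arrays, 6.91 and 6.60 on HEB KO arrays and 6.61 and 6.48 on WT arrays. The HEB KO arrays overlapped with both other genotypes. The difference between E2A KO and WT cells was 0.67 (1.59-fold, SE 0.30, 95% interval -0.01 to 1.35), with an unadjusted limma p of 0.0517 and an adjusted p of 0.377. It ran from 0.51 without E2A KO array 1 to 0.84 without E2A KO array 3. The mean of 11 mitosis genes was also higher on E2A KO arrays 1 and 2 than on arrays 3 and 4 (7.97, 8.50, 7.50 and 7.0 on arrays 1 to 4), and its part in the Cdkn2c values was not tested.

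Cdkn1a, an inhibitor that p53 induces and that E2A can activate in cultured cells, read 8.60, 8.45, 8.42 and 8.74 on E2A KO arrays, 8.85 and 7.78 on HEB KO arrays and 7.67 and 8.28 on WT arrays at its brightest probe set, 1424638_at. The E2A KO arrays lay close together and above WT, while the HEB KO arrays stood on either side of them. From WT, the E2A KO mean differed by 0.58 (1.49-fold, SE 0.32, 95% interval -0.15 to 1.30, adjusted p = 0.455), 0.28 without WT array 1 and 0.88 without WT array 2. The dimmer probe set 1421679_a_at read 5.44, 4.45, 4.48 and 5.67 on E2A KO arrays, 5.90 and 5.28 on HEB KO arrays and 4.76 and 5.56 on WT arrays. Its genotypes overlapped and its difference was of the other sign (-0.15, SE 0.43, adjusted p = 0.906). Of 11 listed p53 targets tested, 0 were called in any comparison, and 4 were positive between E2A KO and WT cells (median -0.09). Trp53inp1 (-1.46, SE 0.40, adjusted p = 0.173) and Sesn1 (-0.57, SE 0.23, adjusted p = 0.339), both induced by p53 under stress, had the smallest p among them. Sesn2 came next, with the other sign (0.55, SE 0.22, adjusted p = 0.344).

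Cdkn1b, which holds resting lymphocytes out of cycle, read 6.74, 7.09, 6.50 and 7.14 on E2A KO arrays, 6.44 and 6.61 on HEB KO arrays and 7.05 and 6.78 on WT arrays at its brightest probe set, 1434045_at. E2A KO and WT cells overlapped (-0.04, SE 0.25, 95% interval -0.60 to 0.52, adjusted p = 0.954), and both HEB KO arrays lay below WT (-0.38, SE 0.28, adjusted p = 1). The other probe set, 1419497_at, was above the array median on 2 arrays only and read 3.59, 2.91, 2.68 and 3.37 on E2A KO arrays, 3.82 and 3.40 on HEB KO arrays and 4.47 and 3.74 on WT arrays. Its E2A KO values lay below WT (-0.97, SE 0.33, adjusted p = 0.304), a difference measured close to background.

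In HEB KO against WT cells, Cdk4 and Cdk6 had both arrays above WT, 2 of the 10 genes where 23.4% of all genes did. Ccnd1 and Cdkn1b had both arrays below WT, again 2 of the 10, where 11.4% of all genes did. Between E2A KO and HEB KO cells, Cdk4 and Cdk6 had all E2A KO arrays below both HEB KO arrays, 2 of the 10 where 21.6% of all genes did. Of the 27 probe sets, 7 did not overlap between E2A KO and WT cells in either direction, where 23.7% of all probe sets did not. The count was 16 between HEB KO and WT cells, where 35.6% did not, and 7 between E2A KO and HEB KO cells, where 27.8% did not. Several of these probe sets read the same gene, so the counts are not of independent measurements.

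**Figure D3:**
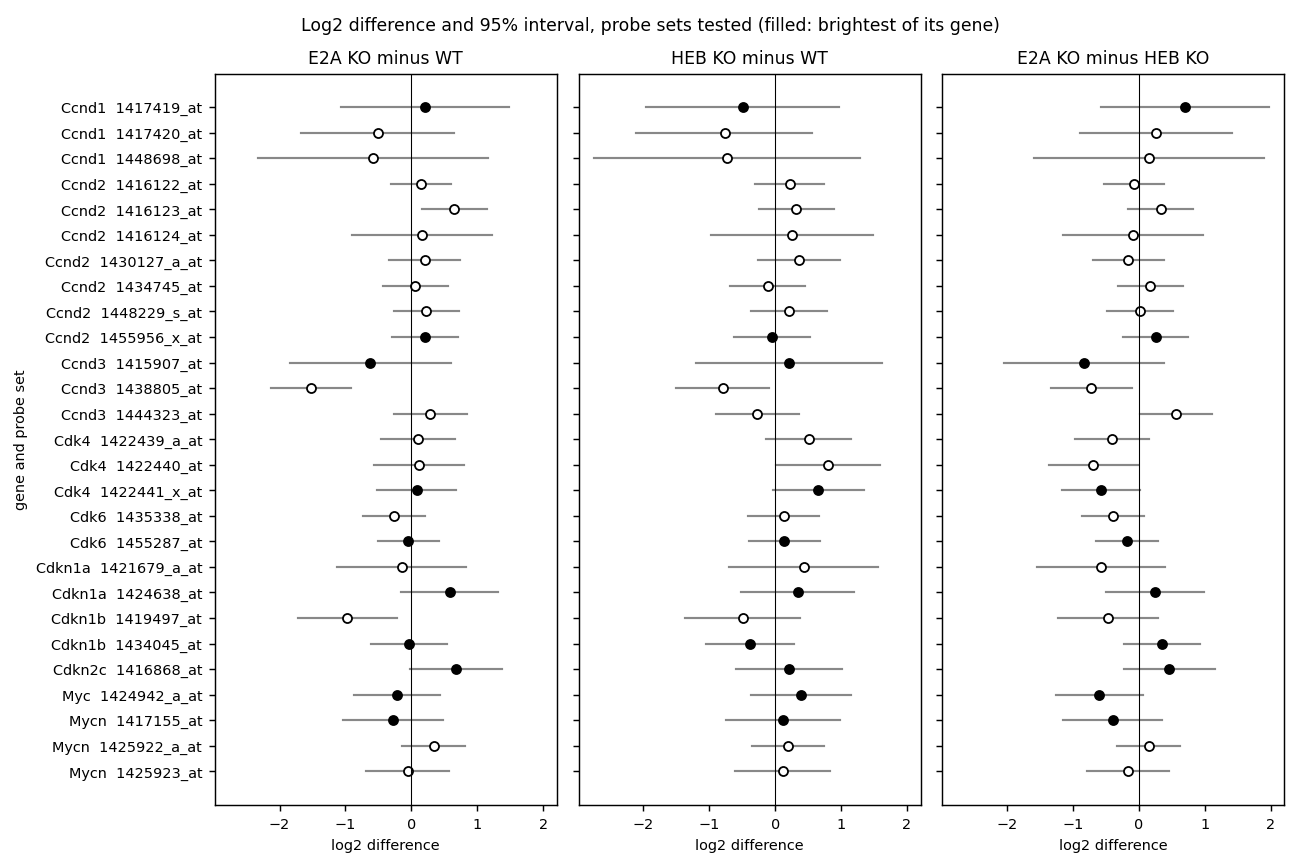
Log2 difference (x axis) with its 95% interval for each of the 27 probe sets tested (y axis, by gene), in 3 panels for E2A KO minus WT, HEB KO minus WT and E2A KO minus HEB KO; filled points mark the brightest probe set of a gene. Most intervals cross 0 and no probe set passed the adjusted test; the farthest from 0 is Ccnd3 1438805_at at -1.52 in the first panel.

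Promoter letters are shown for the members whose windows hold CACGTG, the motif of Myc, or E-boxes of the kinds that E proteins are known to bind. RefSeq windows (GRCm38.p6) of 250 bases before to 50 bases after a start site were found for 7 of the 10 genes, 10 windows in all. Capitals mark every CANNTG, the general E-box, which takes in the motifs above and is matched on both strands alike.
Cdk4, chr10:127063285-127063584, plus strand: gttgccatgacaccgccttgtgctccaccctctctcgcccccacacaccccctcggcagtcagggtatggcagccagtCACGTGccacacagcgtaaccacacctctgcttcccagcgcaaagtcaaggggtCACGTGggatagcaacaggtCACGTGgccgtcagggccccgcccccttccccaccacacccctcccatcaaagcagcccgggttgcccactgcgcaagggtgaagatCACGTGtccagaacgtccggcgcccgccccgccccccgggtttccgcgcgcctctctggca
Cdk6, chr5:3343643-3343942, plus strand: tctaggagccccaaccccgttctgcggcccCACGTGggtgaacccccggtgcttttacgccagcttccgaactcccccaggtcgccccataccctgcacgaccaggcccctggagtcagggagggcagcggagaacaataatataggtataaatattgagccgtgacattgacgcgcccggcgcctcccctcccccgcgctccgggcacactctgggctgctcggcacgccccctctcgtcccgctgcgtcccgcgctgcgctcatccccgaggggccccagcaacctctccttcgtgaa
Cdkn1a, chr17:29090729-29091028, plus strand: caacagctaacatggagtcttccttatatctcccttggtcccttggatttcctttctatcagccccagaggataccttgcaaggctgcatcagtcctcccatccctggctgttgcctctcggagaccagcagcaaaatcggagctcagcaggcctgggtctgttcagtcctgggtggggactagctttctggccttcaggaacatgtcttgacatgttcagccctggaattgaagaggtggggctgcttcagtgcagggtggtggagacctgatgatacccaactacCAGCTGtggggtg
Cdkn1a, chr17:29093519-29093818, plus strand: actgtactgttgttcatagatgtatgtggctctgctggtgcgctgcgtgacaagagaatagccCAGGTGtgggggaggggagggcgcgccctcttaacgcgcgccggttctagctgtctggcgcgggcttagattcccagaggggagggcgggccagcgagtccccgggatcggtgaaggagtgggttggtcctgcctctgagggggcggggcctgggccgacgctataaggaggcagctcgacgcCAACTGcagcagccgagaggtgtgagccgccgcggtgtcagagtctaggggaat
Cdkn2c, chr4:109665323-109665622, minus strand: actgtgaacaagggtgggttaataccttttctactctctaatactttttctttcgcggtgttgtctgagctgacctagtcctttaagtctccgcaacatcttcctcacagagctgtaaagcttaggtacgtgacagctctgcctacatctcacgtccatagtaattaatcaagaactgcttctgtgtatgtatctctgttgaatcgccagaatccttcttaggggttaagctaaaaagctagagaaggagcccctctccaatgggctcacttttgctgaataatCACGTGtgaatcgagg
The Cdk4 window held CACGTG 4 times, with first bases at -172, -118, -98 and -11 from the start site, and 0.0244% of 32851 windows of this length held as many. Cdk6 held CACGTG at -220 and this Cdkn2c window at 35, where 7.15% of windows held at least 1. The first Cdkn1a window held CAGCTG at 38, which 16.3% of windows held somewhere. The second held CAGGTG at -187, which 20.2% of windows held on either strand, and another CANNTG match at -4. Any CANNTG was present in 72.3% of windows and in at least 1 window of 5 of the 7 genes. The fifth of these was Mycn, whose window is not shown. It held CAAATG at -192 and CATCTG at 10, where 39.6% of windows held at least 2 CANNTG matches. The windows of Ccnd3 and Cdkn1b held none, which says only that these letters are not there. A match is a run of letters and no measured binding.

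Myc, the family member most used by dividing cells, read 9.72, 8.98, 9.22 and 9.15 on E2A KO arrays, 10.21 and 9.54 on HEB KO arrays and 9.63 and 9.34 on WT arrays at its only probe set, 1424942_a_at. The genotypes overlapped, with HEB KO array 1 the highest. The difference between E2A KO and WT cells was -0.22 (SE 0.28, 95% interval -0.86 to 0.42, adjusted p = 0.754), and 0.13 with the hybridization control covariate. HEB KO and WT cells differed by 0.39 (SE 0.33, adjusted p = 1), or 0.05 without HEB KO array 1 and -0.10 without both that array and WT array 2. E2A KO and HEB KO cells differed by -0.60 (SE 0.28, adjusted p = 0.327), or by -0.27 without HEB KO array 1. Mycn, the relative that stem and early progenitor cells also use, read 8.10, 7.52, 8.43 and 7.31 on E2A KO arrays, 8.11 and 8.37 on HEB KO arrays and 8.26 and 7.98 on WT arrays at 1417155_at. The E2A KO arrays spread around the others (SD 0.52, n = 4), and the difference from WT was -0.28 (SE 0.32, adjusted p = 0.728). The other probe sets of Mycn were dimmer and differed by 0.34 at 1425922_a_at and -0.06 at 1425923_at between E2A KO and WT cells.

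The genes around these regulators were counted in lists, and no member of the 6 lists that follow was called in any comparison. Of 22 partners in G1, such as cyclins E and A, Cdk2, pocket proteins and E2F factors, 11 were positive between E2A KO and WT cells (median 0.02, against -0.05 over all genes). Between HEB KO and WT cells 17 were positive (median 0.14, against 0.09). There 15 lay above the median of all genes, and 11 did with cyclic loess. E2f7, a repressor of the E2F family, read 6.87, 6.60, 6.48 and 6.61 on E2A KO arrays, 6.23 and 6.15 on HEB KO arrays and 4.84 and 5.89 on WT arrays. The levels of the genotypes did not overlap, yet the difference between E2A KO and WT cells missed the threshold (1.28, SE 0.29, adjusted p = 0.112). Its close relative E2f8 read 7.82, 8.14, 8.29 and 7.45 on E2A KO arrays, 7.25 and 7.17 on HEB KO arrays and 7.10 and 7.05 on WT arrays, with all E2A KO values above the others (0.85, SE 0.26, adjusted p = 0.22 from WT). Of 5 other Cdk inhibitors, Cdkn2a and Cdkn2b, which block Cdk4 and Cdk6, did not pass the filter. The difference between E2A KO and WT cells was -0.37 for Cdkn2d (SE 0.26, adjusted p = 0.57), an inhibitor of the same class, and 0.33 for Cdkn3 (SE 0.41, adjusted p = 0.747), a phosphatase that acts on cyclin-dependent kinases.

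In the network of Max, 3 of 10 genes were positive between E2A KO and WT cells (median -0.12). Mxd3, which competes with Myc for Max, read 6.16, 7.18, 6.83 and 6.09 on E2A KO arrays, 5.60 and 4.88 on HEB KO arrays and 4.84 and 5.19 on WT arrays. All E2A KO values lay above all others, with a difference of 1.55 from WT (2.93-fold, SE 0.36, adjusted p = 0.114) and of 1.32 from HEB KO (SE 0.36, adjusted p = 0.163). Mlxip, a more distant member of the network, differed by -0.26 between E2A KO and WT cells (SE 0.18, adjusted p = 0.562). Among 20 genes known as Myc targets, 12 were positive between E2A KO and WT cells (median 0.08). For HEB KO minus WT, 19 were positive (median 0.27, 16 above the median of all genes), and 16 with cyclic loess. Both HEB KO arrays had the lowest actin 3′ to 5′ difference, given above, and its part in this count and in that of the E2F targets was not tested. Eif4a1, a helicase of translation, differed by 0.45 (SE 0.24, adjusted p = 0.454) and Hspe1, a mitochondrial co-chaperonin, by -0.27 (SE 0.21, adjusted p = 0.586) between E2A KO and WT cells.

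Among 19 E2F targets, genes of DNA synthesis, 11 were positive between E2A KO and WT cells (median 0.27), and 16 with cyclic loess. In HEB KO against WT cells 18 were positive (median 0.28, 15 above the median of all genes), and 16 with cyclic loess. Rrm2, the small subunit of ribonucleotide reductase, read 10.70, 10.96, 10.75 and 10.51 on E2A KO arrays, 9.62 and 9.90 on HEB KO arrays and 10.05 and 9.45 on WT arrays. Its E2A KO values all lay above the others (0.98, SE 0.24, adjusted p = 0.14 from WT). Cdc45, part of the replicative helicase, differed by 0.91 between E2A KO and WT cells (SE 0.30, adjusted p = 0.25). Of 11 mitosis genes 9 were positive between E2A KO and WT cells (median 0.50), but their mean was 7.0 to 8.50 on E2A KO arrays, 7.87 and 7.34 on HEB KO arrays and 7.26 and 7.44 on WT arrays, so that the genotypes overlapped. Cdk1, the kinase of mitosis, differed by 0.68 (SE 0.37, adjusted p = 0.453) and Aurkb, a kinase of chromosome segregation, by 0.82 (SE 0.46, adjusted p = 0.458) between E2A KO and WT cells.

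**Figure D4:**
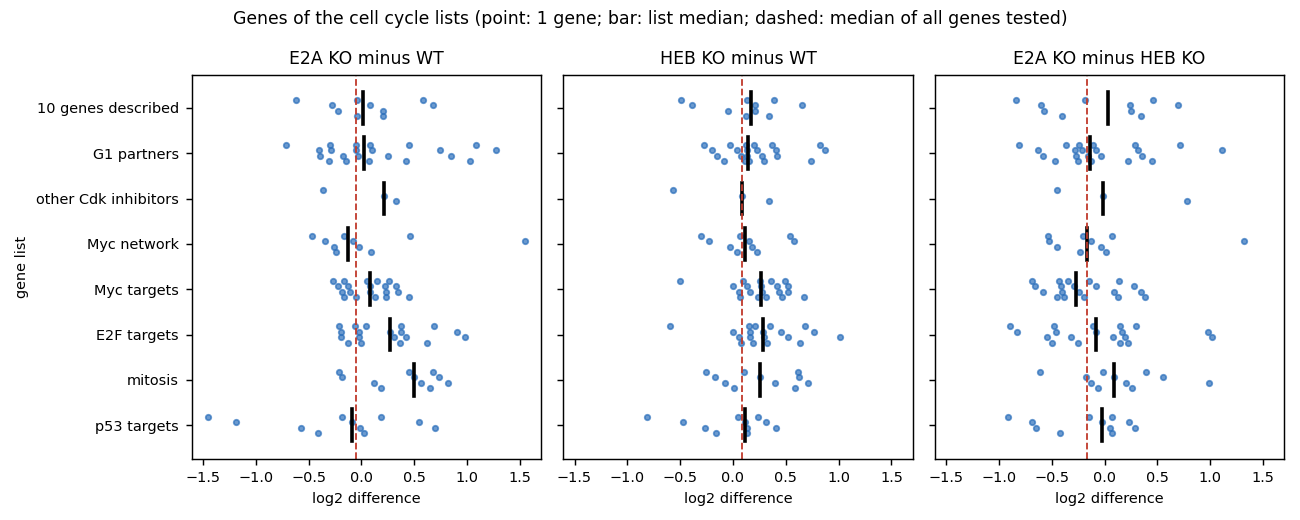
Log2 difference (x axis) of each tested gene of 8 lists (y axis) in the 3 comparisons; points are genes, black bars list medians and the dashed line the median of all genes tested. The 10 genes described have medians of 0.02, 0.17 and 0.03, and the mitosis genes have a median of 0.50 for E2A KO minus WT.

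For Cdk4, Cdkn2c and Myc, the 3 of the 10 genes with the largest F statistic over the genotypes, the tested genes with the most alike profile over the 8 arrays were sought. Likeness was the root mean square difference in log2 between profiles, each centred on its own mean. For Cdk4, whose own values scattered by 0.341 around their mean, the nearest were Pdcd6, a calcium-binding protein (0.0919), Tsen34, a subunit of the tRNA splicing endonuclease (0.104), and Nabp2, which binds single-stranded DNA (0.108). For Cdkn2c, with a scatter of 0.412, they were Sdad1 (0.0655), Rnaseh2c, a subunit of ribonuclease H2 (0.115), and Gm46390 (0.124). For Myc, with a scatter of 0.363, they were Pbx4 (0.118), Tdrd3 (0.152) and Rcc1, the exchange factor of Ran (0.153). These names are a description of the 8 arrays only.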

How the data were processed

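RNA of 8 sorted pools was amplified and labelled by a small-sample procedure and hybridized to Affymetrix arrays, per the labels' protocols. The deposited intensity values were made by the authors with RMA, of which the submitters' processing notes state no version. They ran from 3.39 to 23851.73, which is a linear scale, so their log2 was used without further normalization. Gene names came from the platform annotation. The probe set with the highest mean stood for its gene, and it entered the test when it exceeded the array median on 2 or more arrays. Limma 3.58.1 in R 4.3.3 fitted a mean per genotype to all 8 arrays (5 residual degrees of freedom), with Benjamini-Hochberg adjustment over all genes. A second such fit took in all probe sets. The first fit was tested on simulated data, for E2A KO against WT cells only, and the second was not. Values given for a gene come from the first, those for a numbered probe set other than the brightest, and comparisons among probe sets of a gene, from the second. Few arrays limit the precision: over all genes the SE had a median of 0.28 for E2A KO and 0.323 for HEB KO against WT. No arrays were identical.

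The 10 genes and the lists were chosen with earlier results of these data known. Named besides them were called list members or, in a list with none, the 2 with the smallest p between E2A KO and WT cells. Also named were the 3 nearest profiles of each of 3 genes, and Tcf3 and Tcf12. Marker lists are given as means and called genes. A few other list members were added to show how far their list agreed. Ccnd3 probe set 1438805_at was singled out after its values were seen. Some genes of the lists were not analysed here. Same-numbered arrays did not deviate together (correlations of deviations from -0.277 to 0.148), so the numbers were not taken as pairs. Alternatives were other filters, cyclic loess, median centring, averaging probe sets, trended robust eBayes, array weights, fits of only the compared genotypes, a replicate block, the hybridization control as covariate, an adjusted p under 0.1 and leaving out each array in turn. After seeing the data, WT array 2 and HEB KO array 1 were left out together and a crossed pairing was tried.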

Additional observations from a re-analysis of the deposited data

Results flagged for a closer look

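Cdk4 at probe set 1422441_x_at on E2A KO array 4 read 10.55, apart from the 10.05 to 10.13 of the other E2A KO arrays. The gap made up 0.851 of the range of the 4 arrays. It was the only such array among the 28 probe sets examined, and chance gives about 1 in 20 such groups.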

How the results depend on the processing

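None of the 10 genes was called under any alternative run, and none of their 27 probe sets under those run on probe sets. With the replicate block 12 genes in all were called between E2A KO and WT cells, 3 between E2A KO and HEB KO cells and 0 between HEB KO and WT cells. The crossed pairing of HEB KO and WT arrays, chosen after seeing the data, also gave 0. Against 53 and 14 genes called in all for E2A KO against WT and against HEB KO, the counts were 91 and 42 with trended robust eBayes, 120 and 91 with array weights, 26 and 6 with only the compared genotypes, 1 and 1 with the hybridization control covariate, 0 and 0 without both WT array 2 and HEB KO array 1, and 153 and 86 at an adjusted p under 0.1. Leaving out 1 array gave 2 to 104 and 1 to 21. For E2A KO against WT it was 2 without WT array 2, 7 without WT array 1, 26 without either HEB KO array, 20 without E2A KO array 2, 35 without array 1 and 104 without array 3. For E2A KO against HEB KO it was 1 without either HEB KO array or E2A KO array 1, 2 without array 2, 4 without array 4 and 6 without either WT array. The cause was not tested.

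The sign of the differences of the 10 genes turned in 19 values and held in 311, and with an array left out it turned in 12 and held in 228. Between E2A KO and WT cells the turned values were 0.057 for Cdk6 and 0.086 for Cdkn1b with cyclic loess. With the mean of all probe sets they were -0.297 for Ccnd1 and 0.002 for Mycn, and with the replicate block -0.016 for Cdk4, 0.088 for Cdk6, -0.237 for Ccnd1 and 0.007 for Cdkn1b. With the hybridization control covariate they were 0.112 for Cdk6, -0.23 for Ccnd1, 0.088 for Ccnd3 and 0.126 for Myc. For HEB KO against WT cells they were -0.002 for Mycn with cyclic loess, 0.174 for Ccnd2 and -0.287 for Ccnd3 with the mean of all probe sets, and -0.006 for Cdkn2c and -0.095 for Myc without both WT array 2 and HEB KO array 1. Between E2A KO and HEB KO cells they were -0.171 for Cdkn1a and -0.065 for Cdkn1b with the mean of all probe sets. Leaving out 1 array gave, between E2A KO and WT cells, -0.19 to 0.346 for Cdk4, -0.278 to 0.447 for Ccnd1 and -0.176 to 0.096 for Cdkn1b. Between HEB KO and WT cells it gave -0.105 to 0.01 for Ccnd2, -0.19 to 0.611 for Ccnd3, -0.196 to 0.875 for Cdkn1a and -0.019 to 0.261 for Mycn, and between E2A KO and HEB KO cells -0.297 to 0.775 for Cdkn1a. The Ccnd3 probe set 1438805_at kept its sign in the 14 settings run, -1.67 to -1.37 between E2A KO and WT cells. These did not include the hybridization control covariate, array weights, trended robust eBayes or fits of only the compared genotypes. The median of all genes in the 3 comparisons was 0.001, 0.016 and -0.028 with cyclic loess and -0.105, 0.128 and -0.256 with median centring, against -0.053, 0.086 and -0.163 as deposited.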

Other observations

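HEB KO array 1 and WT array 2 shared a low hybridization control signal, and HEB KO array 2 and WT array 1 a higher one, so differences within these pairs are given as values with no test. Myc differed by 0.87 in the low pair (HEB KO array 1 minus WT array 2) and by -0.10 in the other (HEB KO array 2 minus WT array 1). In the same order Ccnd3 probe set 1438805_at differed by -0.67 and -0.93, Cdkn1a at 1424638_at by 0.57 and 0.11, and Cdkn2c by 0.43 and -0.01. The mean of the E2A KO arrays, which had the higher control signal, differed from WT array 1 by 0.61 for Cdkn2c, 0.88 for Cdkn1a at 1424638_at and -1.63 for Ccnd3 at 1438805_at.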
